A study of Drosophila melanogaster with 4 samples.

Results

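Uextra is the additional unplaced sequence of release 5 of the Drosophila melanogaster genome. It held 4114 of the 7683 peaks deposited for a ChIP-seq experiment on Deformed (Dfd), and these 4114 are described here, each of them included at any score. Membership rested on the sequence name alone, and this sequence was picked with earlier results of these data known. The study used 2 libraries from chromatin precipitated with a rabbit polyclonal antibody against green fluorescent protein (GFP) and 2 input libraries. Both groups came from embryos of the strain Dfd-GFP-Pacman labelled 0 to 8 h, genotype PBac{y[+]-attP-3B}VK00037. All 4 libraries therefore carried the same transgene, a genomic Dfd coding region in which GFP takes the place of the stop codon, and no library without the tag was analysed here. The protocol text of the labels names another fly stock and a collection of 8 to 16 h, so the stage is given as labelled.

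Dfd is a Hox protein, a homeodomain transcription factor that gives the mandibular and maxillary segments of the embryonic head their identity. In ChIP-seq, DNA crosslinked to the tagged protein is enriched, sequenced and aligned, and a peak is a stretch in which aligned fragments exceed a local background. Uextra is unlike a chromosome arm. It strings together small scaffolds that the assembly could not join to larger ones, many of them repetitive and some of low quality, so positions that follow each other on Uextra are in general not neighbours on a chromosome. A distance on Uextra is a distance in the assembly. The score of a peak was read as −log10 of the p-value given by the peak caller, a reading taken from the values and not from the file. Peaks were called for the series and not for a library, so ChIP and input, or replicate and replicate, could not be compared. No p-value is given, since peaks of a single list are not replicates; the intervals cover counting error only.

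The peaks ran from bases 260704 to 261246, the first, to bases 28533701 to 28533926, the last, with scores of 12.41 and 11.02. Over this span of 28.3 Mb the mean density was 146 peaks per Mb. Density was far from even, however. In windows of 1 Mb counted from the first base, the 28 full windows held between 27 and 199 peaks, with a median of 158.5.

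The sparsest windows were the first ones. Window 1 held 27 peaks (95% Poisson interval 17.8 to 39.3), window 2 held 56 and window 3 held 80. Counts were 107, 147, 111, 131 and 113 in windows 4 to 8. From window 9 to window 26 every window held between 148 and 199 peaks, and these 18 windows held 3096 peaks, or 75.3% of those on Uextra. The densest were window 15, bases 14000001 to 15000000, with 199 peaks (interval 172 to 229), window 25 with 195 and window 26 with 187. The order of these 3 windows was not tested. Beyond them the count was 143 in window 27 and 88 in window 28, and the last 0.534 Mb up to the final peak held 15. Peaks covered 1.32% of the bases of window 1 and 7.85% of those of window 15.

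**Figure D1:**
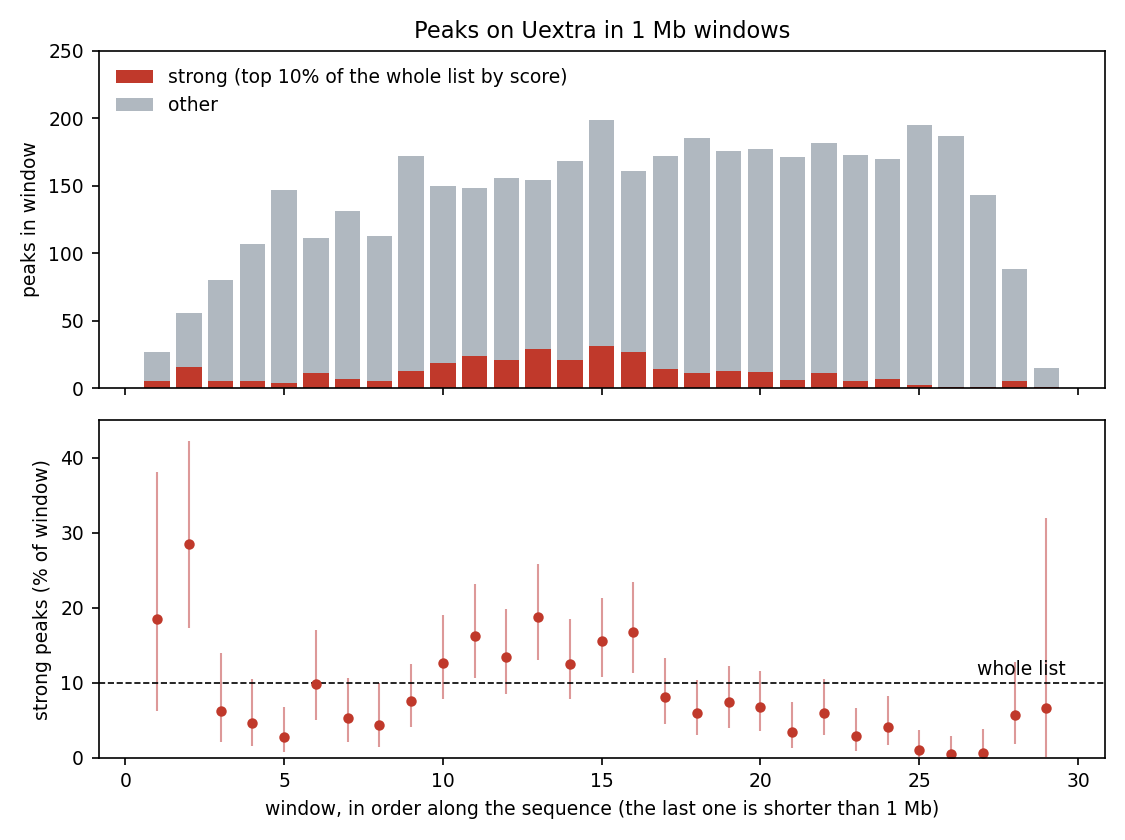
The upper panel shows the number of peaks in each 1 Mb window in order along Uextra, with strong peaks (the top 10% of the whole list by score) stacked below the others; the lower panel shows strong peaks as a percentage of the window, with exact 95% binomial intervals and a dashed line at the 10.0% of the whole list. Counts stay between 148 and 199 from window 9 to window 26, and strong peaks are most numerous in windows 10 to 16, where each window holds 19 to 31.

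The strong peaks were distributed in another way. Strong peaks are those at or above the score that the top 10% of the whole list reach, which, with ties, makes up 10.0% of it. On Uextra this limit was met by 332 of 4114 peaks, or 8.07% (exact 95% interval 7.26 to 8.94%). Windows 10 to 16, bases 9000001 to 16000000, held 172 strong peaks among 1136, or 15.1% (interval 13.1 to 17.4%). These 7 windows held 27.6% of all Uextra peaks and 51.8% of the strong ones. Windows 1 to 9 held 71 strong peaks among 944 (7.52%, interval 5.92 to 9.39%). Windows 17 to 24 held 79 among 1406 (5.62%, interval 4.47 to 6.95%). The windows from 25 on held 10 among 628 (1.59%, interval 0.766 to 2.91%). The bounds of these 4 sections were set after the counts had been seen, so the difference between them is a description.

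High density and many strong peaks did not go together in every window. No measure of association was computed across the windows, so the windows below are examples. Window 15 was both the densest and the richest in strong peaks, with 31. Windows 25 and 26, next in density, held 195 and 187 peaks but only 2 and 1 strong ones. Window 2 was sparse, with 56 peaks, and 16 of these were strong (28.6%, interval 17.3 to 42.2%), the highest share of any window. The median score of all peaks varied little by comparison, from 12.78 in window 21 to 17.37 in window 2 among the full windows. It was 14.0 in windows 10 to 16 and 13.27 in the windows from 25 on. The median score within the strong class was 74.82 in windows 10 to 16, 75.42 in windows 1 to 9, 76.2 in windows 17 to 24 and 61.71 in the windows from 25 on, the last over 10 peaks.

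Read in order along the sequence, the 332 strong peaks formed 295 uninterrupted stretches, of which 267 were a single peak. A further 21 stretches held 2 strong peaks in a row, 5 held 3, and 2 held 4. With strong peaks at 8.07% of all, mostly single stretches follow from that share. The gap between successive strong peaks had a median of 45914 bp, with a median of 6 other peaks in it. The shortest such gap was 73 bp. In the longest, bases 25191310 to 26720819, no strong peak occurred over 1530 kb and 266 other peaks in a row.

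Neighbours of strong peaks were compared with neighbours of the others. Of the 664 neighbours of strong peaks, 74 were themselves strong (11.1%), and of the 7562 neighbours of other peaks, 590 were strong (7.80%). The direction was not the same in each section. In windows 10 to 16, 12.2% of the neighbours of strong peaks and 15.6% of the neighbours of other peaks were strong. In windows 1 to 9 the shares were 12.7% next to strong peaks and 7.16% next to others, and from window 17 on they were 7.87% and 4.22%. The scores of the neighbours were close, with a median of 14.175 next to strong peaks and 13.4 next to others. A neighbour within 1000 bp, edge to edge, was present for 103 of 332 strong peaks (31.0%, interval 26.1 to 36.3%). Among the other peaks it was present for 1007 of 3782 (26.6%, interval 25.2 to 28.1%). The difference was not tested. The nearest gap had a median of 1903.5 bp for strong peaks and 2029.5 bp for the others.

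The 20 highest Uextra peaks scored from 225.64 to 281.55, and their widths ran from 633 to 874 bp. They were spread over 11 windows, and 17 of them lay in windows 10 to 20. The highest score, 281.55, belonged to an 847-bp peak at bases 19463762 to 19464608. Its neighbours on either side scored 11.42 each, at gaps of 34648 and 16715 bp. A second peak of 847 bp, at bases 14037823 to 14038669, scored 279.45 with neighbours of 15.85 and 12.98 at gaps of 996 and 964 bp. The third, bases 26720820 to 26721452, was 633 bp wide and scored 279.12. It ended the long stretch without strong peaks and was the only strong peak of window 27. The fourth, at bases 15274330 to 15275203, scored 278.73 and was 874 bp wide. The fifth, at bases 1104567 to 1105354, scored 259.82 and followed a peak of 179.1. Among the 40 neighbours of the 20 peaks, 4 were strong, near the strong share of all Uextra peaks, and the median score of all 40 was 14.53.

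No break in the scores marked the limit. Of the 5 strong peaks just inside it, the lowest lay at the limit itself and the other 4 scored 52.44, 52.46, 52.6 and 52.74; their widths were 493, 796, 690, 693 and 677 bp. Just below it lay peaks scoring 52.13 at 2 positions, 51.93, 51.9 and 51.76, with widths of 646, 444, 748, 722 and 324 bp. Of the strong peaks, 68 scored under 60, 121 scored from 60 to under 80, 48 from 80 to under 100, 69 from 100 to under 200, and 26 scored 200 or more. Among the other peaks, 168 scored from 30 up to the limit and 252 from 20 to under 30. The bulk lay lower, with 824 from 15 to under 20, 1912 from 10 to under 15, and 626 under 10. The lowest score was 6.31.

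Strong peaks were the wide peaks of Uextra. At the median, strong peaks were 737 bp wide, with quartiles of 653.75 and 800.5 bp and extremes of 206 and 1624 bp. The others were 311 bp wide at the median, with quartiles of 248.25 and 391 bp and extremes of 201 and 1270 bp. Widths from 600 to under 900 bp were found in 259 strong peaks (78.0%) and in 101 other peaks (2.67%). Of the 380 Uextra peaks of at least 600 bp, 277 were strong (72.9%). Only 11 strong peaks were narrower than 400 bp. Score and width are both set by the caller, so their relation is a description. Spearman's rho of score and width was 0.54 over the 4114 peaks, 0.28 within the strong class and 0.41 within the others, across peaks of a single list.

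Peaks of more than 1000 bp were rare on Uextra. Of the 4114 peaks, 11 were wider than 1000 bp (0.267%), against 13 of 571 on the unplaced sequence U (2.28%), 30 of 369 on the Het scaffolds of placed heterochromatin (8.13%) and 223 of 2625 on the chromosome arms (8.50%). The widest on Uextra had 1624 bp, at bases 10904553 to 10906176, and scored 157.87. The next, at bases 12912739 to 12914313, had 1575 bp and scored 80.17. Both were strong. Of the 10 widest, 8 lay in the first 5 windows, from bases 679006 to 680275 (1270 bp, score 33.18, the only one of the 10 that was not strong) to bases 4386825 to 4387838 (1014 bp, score 62.2). The others of these 8, from bases 778784, 1070148, 1902545, 1181816, 1092374 and 3437676, had 1271, 1227, 1136, 1113, 1058 and 1050 bp. The widest peak was 1903 bp on U, 2214 bp on the Het scaffolds and 19741 bp on the arms.

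At like scores, widths on Uextra spread less than on the arms. From the strong limit to under 100, the median width was 729 bp over 237 Uextra peaks, with quartiles of 647 and 786 bp, and 566 bp over 170 arm peaks, with quartiles of 448.75 and 736.75 bp. Uextra peaks of this range were thus wider at the median than arm peaks, but the widest had 1575 bp on Uextra and 5234 bp on the arms. On the Het scaffolds the median was close to that on Uextra, at 730.5 bp over 12 peaks with quartiles of 499 and 1025.5 bp. On U it was 569 bp over 11 peaks with quartiles of 544.5 and 707.5 bp. From 100 to under 200, the medians were 737 bp over 69 Uextra peaks and 815 bp over 149 arm peaks. At 200 or more, the 26 Uextra peaks had a median of 829.5 bp with quartiles of 785 and 842.5 bp, and the 76 arm peaks had 794 bp with quartiles of 626.5 and 1177.25 bp. Among weak peaks of 10 to under 15, the medians were 300 bp over 1912 Uextra peaks and 343 bp over 943 arm peaks. They were 329 bp over 252 U peaks and 292 bp over 158 Het peaks. These differences between kinds of sequence were not tested.

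**Figure D2:**
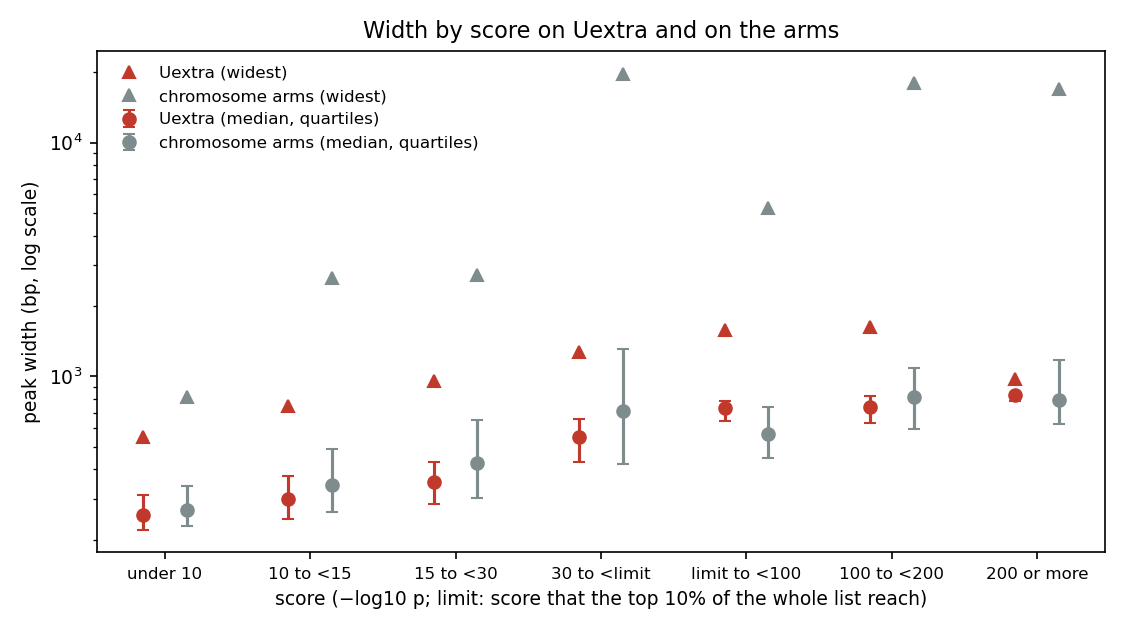
Peak width in bp on a log axis is shown by class of score for Uextra (left of each pair) and the chromosome arms (right), with circles and bars for the median and quartiles and triangles for the widest peak. At scores of 200 or more, the Uextra quartiles span 785 to 842.5 bp and the arm quartiles 626.5 to 1177.25 bp.

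The gap between neighbouring Uextra peaks, edge to edge, had a median of 4225 bp (quartiles 1695 to 8536 bp). It ran from 50 bp to 153312 bp, and no peaks overlapped. The 5 smallest gaps were of 50 or 51 bp. They began at bases 3413670, 4766924, 6684732, 6304516 and 7087772, all in windows 4 to 8. Of the 27 gaps under 100 bp, 20 lay in windows 1 to 9 and 0 from window 18 on. The 5 largest gaps lay at the ends of the sequence. The largest preceded the final peak, the next was one of 109870 bp at bases 273010 to 382879, and the others had 101081, 99384 and 87646 bp, from bases 1566309, 28136454 and 684578.

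Groups of close peaks were small. A neighbour within 1000 bp was found for 1110 Uextra peaks (27.0%, interval 25.6 to 28.4%), against 59.4% on U, 49.9% on the Het scaffolds and 55.6% on the arms, without a test. Chained at gaps of at most 1000 bp, the 1110 peaks formed 506 groups. Of these, 422 held 2 peaks, 73 held 3, 8 held 4 and 3 held 5. The first group of 5 spanned 3.80 kb at bases 11028580 to 11032382, with scores of 11.69, 66.45, 21.56, 10.87 and 14.91. The second spanned 3.34 kb at bases 14410694 to 14414031, where a peak of 99.7 stood between pairs scoring 9.82 and 11.29 before it and 9.56 and 11.97 after it. The third spanned 3.27 kb at bases 22857895 to 22861161 and held no strong peak, with a highest score of 20.85. Of the groups of 4, the first, at bases 4120505 to 4123884, and the second, at bases 7072739 to 7075138, reached 14.03 and 23.99. Each of the first 2 groups of 5 had a single strong peak.

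The distances between neighbouring peaks were not spread smoothly but recurred at regular values. Between midpoints, 190 of the 4113 distances lay from 700 to under 800 bp, and 149 from 800 to under 900 bp. The count dropped to 11 from 1200 to under 1300 bp. It was 121 from 1500 to under 1600 bp, 13 from 1900 to under 2000 bp and 80 from 2400 to under 2500 bp. Another rise, to 60, followed from 3200 to under 3300 bp. Only 40 distances were under 600 bp. On the arms, the count was highest from 700 to under 800 bp as well, with 115 of 2619 distances. There it was 64 from 1200 to under 1300 bp, 45 from 1500 to under 1600 bp, 24 from 1900 to under 2000 bp and 15 from 2400 to under 2500 bp, a decline without the second and the third rise. Of 570 distances on U, 11 lay from 1500 to under 1600 bp and 9 from 2100 to under 2200 bp. Of 363 on the Het scaffolds, 11 lay from 1400 to under 1500 bp and 10 from 2100 to under 2200 bp. Each of these counts exceeded those of the adjoining bins, but all are small.

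**Figure D3:**
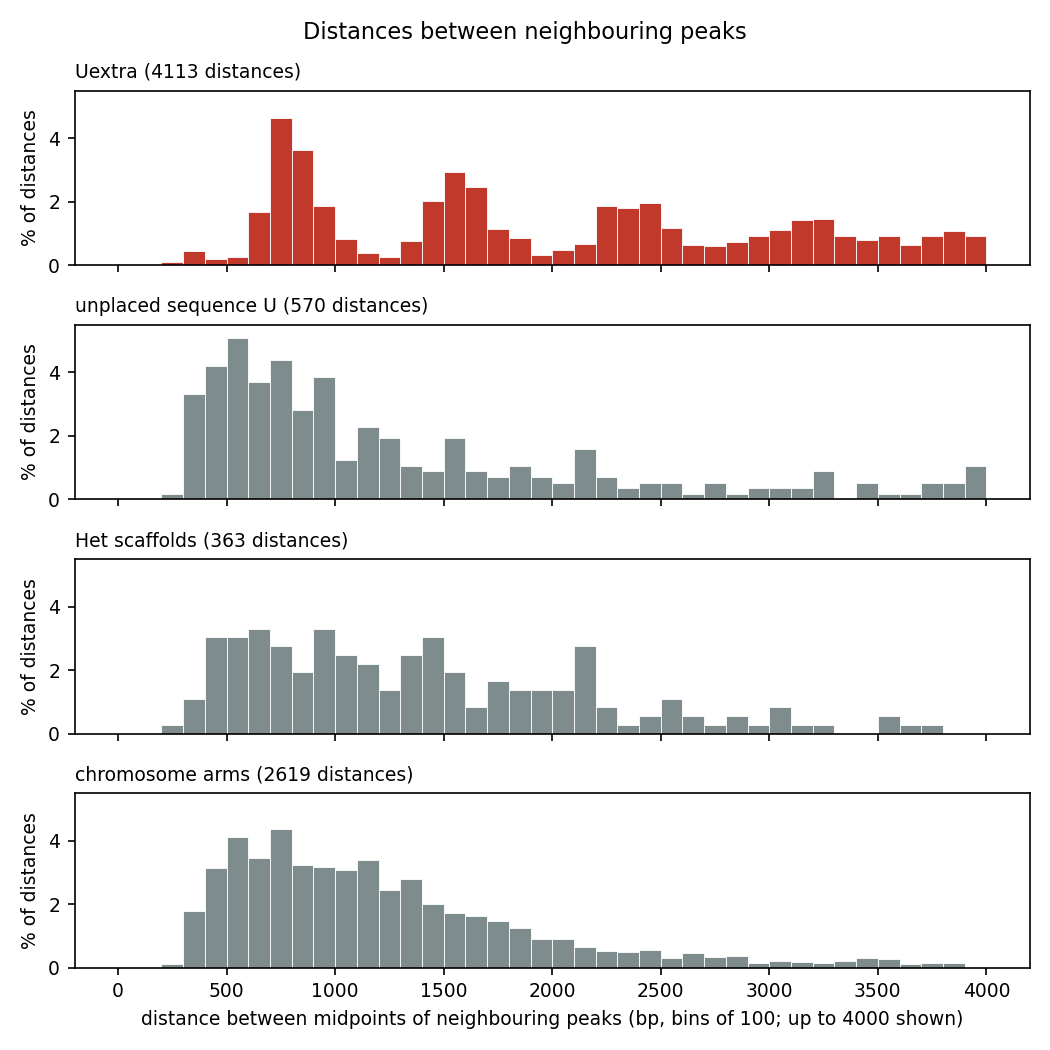
Each panel shows the distances between midpoints of neighbouring peaks, up to 4000 bp in bins of 100 bp, as a percentage of all such distances for Uextra (top), the unplaced sequence U, the Het scaffolds and the chromosome arms. Uextra shows separate rises at 700 to 800, 1500 to 1600 and 2400 to 2500 bp, and the arms a single rise with a long decline. U and the Het scaffolds also show later rises, from few distances per bin.

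The repeat was measured in each window. All pairs of midpoints up to 6000 bp apart in a 1 Mb window were used. For each candidate from 500 to 1500 bp, every distance was placed by its remainder after whole multiples of the candidate. The repeat distance was the candidate at which these remainders were most alike. The strength of the repeat is the mean resultant length of the remainders. It is 1 when all remainders are equal, as for exact multiples, and near 0 when they are spread evenly. A shared remainder other than 0 raises it as much, so closeness to whole multiples is not measured by it. The 21 windows with at least 100 pairs had 100 to 248 pairs each. In them the strength ran from 0.50 in window 5 to 0.86 in window 24, with a median of 0.77. The same measure was 0.15 and 0.17 in the 2 windows of U with at least 100 pairs. It was 0.14 to 0.24 in 4 such windows of the arms, which held 35 to 52 peaks each. The best candidate was 1500 bp in both windows of U, 630 bp on 2R, 585 bp on 3L and 500 and 1500 bp on X. Of these values, 500 and 1500 bp are the ends of the range searched. No Het window had 100 pairs. The repeat was seen first in the distances given above and then measured on the same peaks, so its strength is a description. The value is the highest over all repeat distances searched, so it stays above 0 even where there is no repeat.

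The repeat distance became shorter along the sequence. It was 1025 bp in window 5, 940 bp in window 7, 890 bp in window 9 and 875 bp in window 10. In windows 15 and 16 it was 820 bp, in window 19 it was 800 bp, in window 24 it was 750 bp, and in window 27 it was 710 bp. Between successive windows with a value, it fell in 19 of 20 steps and stayed level in the other one. It rose in 0 steps. Windows 1 to 4, 6, 8, 28 and 29 had too few pairs. Scaffold lengths and boundaries within Uextra were not analysed here, so whether the repeat distance is a length of the strung scaffolds was not tested.

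Pairs that included a strong peak were set against a repeat distance taken only from pairs of peaks that were not strong. In the 17 windows with at least 100 pairs of the second kind, 242 of 366 pairs with a strong peak (66.1%) lay within 10% of the repeat distance from a whole multiple of it. Bands of this size cover 20% of all positions between multiples. In the 8 windows with at least 20 such pairs, the share was lowest in window 9, with 9 of 22 pairs, and highest in window 11, with 33 of 44. The same share for pairs without a strong peak is not given, so the kinds of pair are not compared. Pairs share peaks, so no test was made.

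Widths and the repeat distance were both smaller further along the sequence. In the 21 windows, 30 of 3517 peaks were wider than the repeat distance of their window. The widest peak was below it in 9 windows, at 84.5 to 98.9% of it, and above it in the other 12. Among those, the peaks of 1624 and 1575 bp in windows 11 and 13 had 190% and 188% of it, and in the rest the widest had 101 to 108%. The widest peak had 1014 bp in window 5, 877 bp in window 9, 847 bp in window 15, 706 bp in window 24 and 633 bp in window 27. The median width of strong peaks was 762 bp in windows 1 to 9, 757.5 bp in windows 10 to 16, 703 bp in windows 17 to 24 and 584 bp beyond. That of the other peaks was 339, 325.5, 308 and 281 bp in the same sections. The medians of both classes were thus lower in each later section. The repeat distance, the widths and the position on Uextra moved together, and what links them was not tested.

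**Figure D4:**
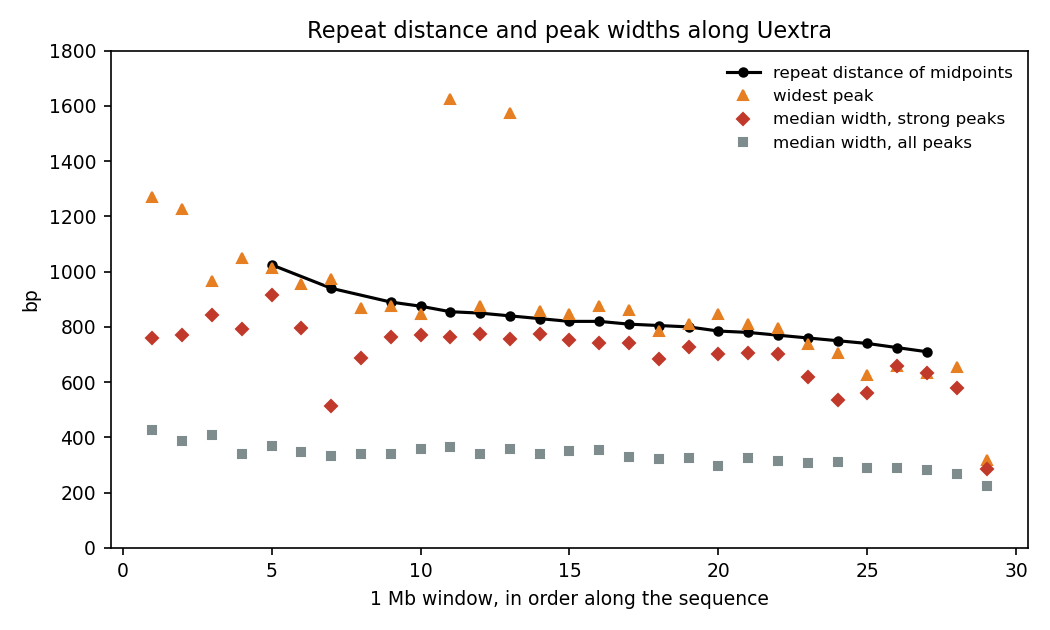
For each 1 Mb window in order along Uextra, the repeat distance of peak midpoints (black line, 21 windows), the widest peak (triangles), the median width of strong peaks (diamonds) and the median width of all peaks (squares) are shown in bp. The repeat distance falls to 710 bp in window 27 after 1025 bp in window 5, and the widest peaks lie close to it in all these windows but 11 and 13 and the last 3, where the widest has 84.5 to 91.0% of it.

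A fold over background could be derived for part of the peaks. The background rate of fragments shared by the most scores of the whole list was 80.06, and 2277 Uextra scores (55.3%) equalled −log10 of the Poisson tail at that rate to 2 decimals. Other rates within 20 of it matched a median of 239 scores of the whole list (3.11%), against 3872 (50.4%) at 80.06. Matches were few among strong peaks, 34 of 332 (10.2%), and made up 2243 of 3782 others (59.3%). At 80.06, matched strong peaks had an inferred 3.68-fold enrichment at the median (range 3.16-fold to 5.95-fold), and matched other peaks 1.92-fold (range 1.60-fold to 3.14-fold). Matches at other rates are not given for the strong class, so some of its 34 matches could be accidental. The score follows from the fold at a fixed rate, so the gap between these classes is set by the limit. Peaks without a match have no fold here. The match depends in part on the last digits of the rate, and whether peaks without a match share the rate was not tested. The most frequent Uextra score, 11.42 at 107 peaks, did not match at 80.06. At 80.056, the best rate nearby in steps of 0.001, it did, as did 2602 Uextra scores in all (63.2%) and 59 strong ones (17.8%). Most strong peaks thus had no match at the finer rate either.

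Across kinds of sequence, strong peaks made up 8.07% of Uextra peaks, 2.45% of U peaks (14 of 571, interval 1.35 to 4.08%), 7.59% of Het peaks (28 of 369, interval 5.10 to 10.8%) and 15.0% of arm peaks (395 of 2625, interval 13.7 to 16.5%). The share on Uextra was near that on the Het scaffolds, above that on U and below that on the arms. These differences were not tested, since peaks of a single list are not replicates. The 10% of peaks with the highest scores began at 40.32 on Uextra, 24.87 on U, 44.1 on the Het scaffolds and 81.9 on the arms. Strong peaks had a median score of 74.82 on Uextra, 72.7 on U, 124 on the Het scaffolds and 117 on the arms. Their median widths were 737 bp on Uextra, 586.5 bp on U, 986 bp on the Het scaffolds and 693 bp on the arms. The share of strong peaks on Uextra thus lay below that of the whole list.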

How the data were processed

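The authors deposited 1 peak list for the series, and it was the only file used. FlyBase release 5 is the coordinate system and MACS the source of each peak, per the file headers. The submitters' processing notes list MACS2, BWA and CASAVA (versions 1.7.0.3 and 1.7.0.2) and the build BDGP5. What each tool did, whether replicates were pooled, the threshold and how reads with multiple alignments were handled is not given in the sources used here. Deposited scores were read as −log10 p from their match to a Poisson tail, searched for rates of 20 to 400 in steps of 0.01. Read depth is unknown. Peaks were assigned to windows by their midpoints. Shares have exact (Clopper-Pearson) and densities exact Poisson 95% intervals. Repeat distances were searched in steps of 5 bp. The search was tried on simulated positions with a constant repeat distance or with none, as a check of the code only. That trial is not support for the values on Uextra. Named peaks are the 20 highest, the 10 widest, 5 on either side of the limit, and the extreme windows, gaps and groups. Members and limits were chosen with earlier results of these data known. Sequence and genes under the peaks were not analysed here. Python 3.11.15, numpy 2.4.6, pandas 2.3.3, scipy 1.17.1 and matplotlib 3.10.9 were used.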

Additional observations from a re-analysis of the deposited data

How the results depend on the processing

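Of 43 alternative settings for 14 values, 18 left the value within its tolerance and 25 moved it; none had a test. The tolerance was the 95% interval of a share, density or median, 1.5 times for a number of peaks, windows or steps, and 10 bp for a repeat distance. Several moved by construction. The top 50% of the list by score left 2022 Uextra peaks, 52.1% of that list, with a median width of 384 bp, a neighbour within 1000 bp for 14.7%, and a median, highest and lowest window density of 77.5, 104 and 17 per Mb. Merging gave Uextra 58.3% of peaks within 500 bp and 61.2% within 1000 bp; within 1000 bp the median width was 348 bp and the median and highest densities were 134 and 167 per Mb. The lowest density was 41.5 per Mb in windows of 2 Mb. A neighbour was present for 18.2, 49.7 and 80.2% of peaks within 500, 2000 and 5000 bp. A strong limit at the top 5% of the list (89.54) left 117 Uextra peaks and one at the top 20% (22.57) 608, of which windows 10 to 16 held 42.6%. The settings for sections, the repeat distance and the finer background rate were chosen after seeing the data. With distances up to 3000 bp only 2 windows had 100 pairs, at 735 and 845 bp, with 1 step between them. The highest repeat distance was 1055 bp with distances up to 10000 bp and 990 bp in windows of 2 Mb, and it rose between successive windows in 0 steps in either. No paired analysis was possible because peaks carry no values of single libraries; leaving out a replicate was not run for the same reason. Read depth is unknown, and its effect was not tested.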
